A study of Mus musculus with 7 samples.

Results

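Transcripts of basophils, mast cells and eosinophils were followed in cultured CD8+ T cells, through 10 genes chosen by symbol from the 55367 genes of the count table: Prg2, Mcpt8, Cpa3, Hdc, Fcer1a, Ms4a2, Cd200r3, Il1rl1, Gata2 and Cyp11a1. They were picked with their difference between the groups below in view, so their values for that difference are given as a description, without a test. The cells were CD8+ T cells from spleens of Foxp3 YFP/cre mice, a strain in which the regulatory T-cell gene Foxp3 also drives a fluorescent protein and Cre. They were exposed for 48 h to small extracellular vesicles (sEVs), membrane particles that cells release, at 100 µg/ml by the labels, while the study's methods speak of amounts scaled to those found in each kind of spleen. In 4 libraries the vesicles came from the spleen microenvironment of healthy mice (HCME-sEVs), and in 3 libraries from leukemic spleens of Eμ-TCL1 mice (LME-sEVs), in which a human TCL1 transgene driven in B cells gives a disease like chronic lymphocytic leukemia. This grouping follows the library titles, whereas the study's figure legend for CD8+ T cells at 48 h gives 4 LME-sEV and 3 HCME-sEV samples. The recipient cells of both groups were otherwise alike by the labels, which state that they were sorted by FACS, whereas the methods describe magnetic negative selection and culture with anti-CD3, anti-CD28 and IL2. No untreated library was analysed here, so each value is relative to cells that received healthy-spleen vesicles. The labels do not say whether the libraries came from separate animals or cultures, so p-values measure the spread between these libraries, which may be technical.

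Basophils and mast cells carry the high-affinity IgE receptor, whose alpha chain Fcer1a binds IgE and whose beta chain Ms4a2 strengthens the signal. Crosslinking of that receptor releases stored histamine, made by the decarboxylase Hdc, together with proteases such as Cpa3 and, in mouse basophils, Mcpt8, and the transcription factor Gata2 is needed for both lineages. Eosinophils fill their granules with major basic protein, encoded by Prg2, and with a peroxidase, Epx. These cells are rare in spleen, and CD8+ T cells are not known as a main source of these products.

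The libraries held between 3689831 and 5030522 counts of unique molecules, each read near the 3′ end of a transcript, so that transcript length does not enter the counts and levels are given as CPM, counts scaled to a common library size with TMM factors. A count of 3 corresponded to between 0.582 and 0.807 CPM. The CD8 T-cell markers summed to between 4590 and 4690 CPM with HCME-sEVs and between 4780 and 5300 CPM with LME-sEVs, whereas Cd4 and Foxp3 reached at most 3 counts in a library. The marker sums did not overlap between the groups. Of the 10 markers 2 were higher with LME-sEVs, beside 3.75% of all tested genes. These were Cd3e, by 0.36 on the log2 scale (edgeR adjusted p = 0.0106), and Cd3g, by 0.49 (edgeR adjusted p = 0.0405). The 10 members together made up between 0.0022% and 0.00615% of all counts in a library, the lowest share having an exact 95% interval of 0.00178 to 0.00269% and the highest one of 0.00538 to 0.00701%, both for counting error only. In these bulk libraries, fewer cells of a type and less RNA per cell cannot be told apart.

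On GRCm38 with the GENCODE vM21 annotation, all 10 are protein-coding genes. Prg2 (ENSMUSG00000027073) spans chr2:84980461-84983632 on the plus strand, and its eosinophil paralog Prg3 lies 4582 bases from it. Mcpt8 (ENSMUSG00000022157) spans chr14:56082166-56085273 on the minus strand, inside the cluster of mast-cell proteases and granzymes. Fcer1a (ENSMUSG00000005339) spans chr1:173221284-173227214, Ms4a2 (ENSMUSG00000024680) chr19:11615523-11623719, and Cpa3 (ENSMUSG00000001865) chr3:20215620-20242181, all on the minus strand. Hdc (ENSMUSG00000027360) spans chr2:126593667-126619299 on the minus strand, Gata2 (ENSMUSG00000015053) chr6:88193891-88207032, Il1rl1 (ENSMUSG00000026069) chr1:40429570-40465415, Cd200r3 (ENSMUSG00000036172) chr16:44943678-44981380 and Cyp11a1 (ENSMUSG00000032323) chr9:58006411-58027023 on the plus strand. Cyp11a1 shares exon sequence with a long noncoding RNA on its own strand, Gm17322, so reads could be split or shared between them. No member had a copy elsewhere that was at least 95% identical over 200 of the last 300 transcript bases.

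GATA factors, among them the member Gata2, bind the core letters GATA, and the promoters of the IgE receptor chains and of Cpa3 hold forms of this motif close to the transcription start. RefSeq promoter windows on GRCm38.p6, from 250 bases before to 50 after each start, were matched for 9 of the 10 members, in 12 windows; Prg2 was the member without one. The letters AGATAA or TGATAA on either strand were found in 6 windows of 5 genes, Fcer1a, Ms4a2, Cpa3, Cd200r3 and Il1rl1. Of all 32817 promoter windows of that length, 18.6% held the motif. Ms4a2 held 3 matches, beginning 224, 37 and 11 bases before the start. Fcer1a held 1, beginning 92 bases before it, and Cpa3 held 1, beginning 46 bases before it. Among all promoters 3.3% held 2 or more. The letters TTCNNNGAA, the core bound by STAT factors, were in 0 of the 12 windows and in 8.3% of all promoters. A match is a description of letters, and binding was not measured. The 120 bases before and 50 from each start are shown for both IgE receptor chains and Cpa3, which hold a match in this stretch, and for Mcpt8, the basophil protease without a match, in lower case, with the motif in capitals (TTATCT is AGATAA read on the other strand):
Ms4a2, chr19:11623670-11623839, minus strand: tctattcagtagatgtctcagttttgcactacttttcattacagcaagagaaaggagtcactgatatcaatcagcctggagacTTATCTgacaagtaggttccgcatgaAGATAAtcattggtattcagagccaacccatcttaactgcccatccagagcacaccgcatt
Fcer1a, chr1:173227180-173227349, minus strand: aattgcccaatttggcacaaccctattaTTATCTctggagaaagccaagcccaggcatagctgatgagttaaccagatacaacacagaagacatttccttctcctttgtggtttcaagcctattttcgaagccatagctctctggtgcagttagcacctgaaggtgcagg
Cpa3, chr3:20242132-20242301, minus strand: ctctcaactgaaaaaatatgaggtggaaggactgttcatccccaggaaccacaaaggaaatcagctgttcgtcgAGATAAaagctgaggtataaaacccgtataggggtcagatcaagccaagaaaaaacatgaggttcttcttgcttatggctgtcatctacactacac
Mcpt8, chr14:56085148-56085317, minus strand: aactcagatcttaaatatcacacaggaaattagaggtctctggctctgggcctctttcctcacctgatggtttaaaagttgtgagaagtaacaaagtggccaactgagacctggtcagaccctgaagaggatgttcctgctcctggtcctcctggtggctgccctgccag

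Prg2, major basic protein, was at 0, 2, 2 and 2 counts in the 4 HCME-sEV libraries and at 18, 41 and 21 counts in the 3 LME-sEV libraries. Every LME-sEV library lay above every HCME-sEV library. In CPM, Prg2 stood at 0.376 ± 0.253 (SD, n = 4) with HCME-sEVs and at 6.04 ± 2.77 (SD, n = 3) with LME-sEVs. The pooled rate was 16.2 times higher with LME-sEVs, given as a description because Prg2 was picked with this contrast in view. The fitted log2 fold change was 3.92 (SE 0.53), and it lay between 3.47 and 4.15 when each library was left out in turn. The HCME-sEV level rests on 6 counts in all, and under the other scalings, filters and tests that gave a value the log2 fold change lay between 3.8 and 4.04.

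Mcpt8, a serine protease stored in mouse basophil granules, was at 3, 35, 24 and 9 counts with HCME-sEVs and at 50, 71 and 36 counts with LME-sEVs. The groups overlapped once depth was taken into account, because HCME-sEV library 2 reached 8.87 CPM and LME-sEV library 3 only 6.98 CPM. Means were 4.52 ± 3.78 CPM (n = 4, SD) and 12.1 ± 4.63 CPM (n = 3, SD), a log2 fold change of 1.43 (SE 0.41). Leaving out 1 library moved that value from 1.06, without HCME-sEV library 1, to 2, without HCME-sEV library 2.

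Cpa3, the carboxypeptidase that basophils and mast cells store with their proteases, was at 16, 70, 34 and 26 counts with HCME-sEVs and at 29, 40 and 32 counts with LME-sEVs. The highest library was HCME-sEV library 2, at 17.7 CPM, and the LME-sEV libraries lay within the HCME-sEV range. Mean levels were 9.18 ± 6.09 CPM (n = 4, SD) and 7.67 ± 1.40 CPM (n = 3, SD), a log2 fold change of -0.26 (SE 0.34) that became 0.28 without HCME-sEV library 2. Hdc, which makes histamine, was at 18, 22, 29 and 22 counts with HCME-sEVs and at 37, 28 and 31 with LME-sEVs. The groups overlapped, with 5.69 ± 1.46 CPM (n = 4, SD) against 7.42 ± 2.20 CPM (n = 3, SD) and a log2 fold change of 0.36 (SE 0.26), which was 0.13 without LME-sEV library 1.

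**Figure D1:**
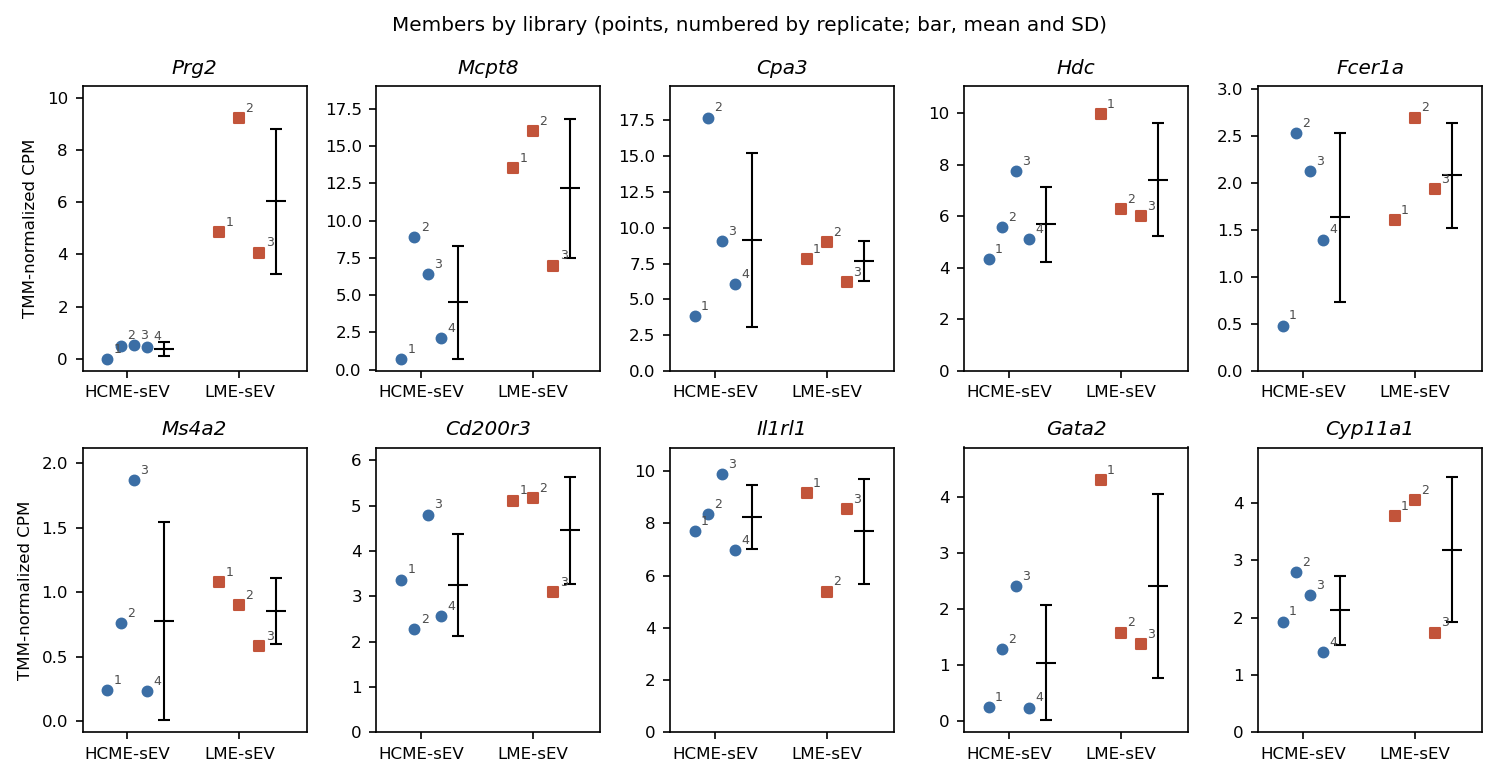
TMM-normalized CPM of the 10 members in each library (circles, 4 HCME-sEV libraries; squares, 3 LME-sEV libraries; small numbers, replicate), with the mean and SD of each group as a bar, on linear axes of differing range. Prg2 is the member whose groups do not overlap, and in HCME-sEV library 1 Prg2, Mcpt8, Cpa3, Hdc and Fcer1a lie lowest of their group.

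Fcer1a, the IgE-binding chain, was at 2, 10, 8 and 6 counts with HCME-sEVs and at 6, 12 and 10 counts with LME-sEVs. The groups overlapped almost fully, at 1.64 ± 0.903 CPM (n = 4, SD) and 2.08 ± 0.555 CPM (n = 3, SD), and the log2 fold change was 0.37 (SE 0.47). It was 0.06 without HCME-sEV library 1 and 0.66 without HCME-sEV library 2. Ms4a2, the beta chain, was at 1, 3, 7 and 1 counts and at 4, 4 and 3 counts, below the mean of 5 counts that the fit required. Its highest library was HCME-sEV library 3, at 1.87 CPM, and the LME-sEV libraries lay inside the HCME-sEV range. The gamma chain Fcer1g, which the receptor shares with other Fc receptors and which is no member, was at 17, 16, 20 and 16 counts against 21, 28 and 27, with a log2 fold change of 0.41 (SE 0.26, edgeR adjusted p = 0.379).

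Cd200r3, an activating receptor of basophils and mast cells, was at 14, 9, 18 and 11 counts with HCME-sEVs and at 19, 23 and 16 counts with LME-sEVs. The groups overlapped through LME-sEV library 3, at 3.10 CPM. The mean was 3.25 CPM (SD 1.13, n = 4) under HCME-sEVs, 4.46 CPM (SD 1.18, n = 3) under LME-sEVs, and the log2 fold change was 0.44 (SE 0.33). Il1rl1, the receptor of the alarmin IL33, was at 32, 33, 37 and 30 counts with HCME-sEVs and at 34, 24 and 44 counts with LME-sEVs. Il1rl1 had the smallest SD relative to its mean of the members within the HCME-sEV group, a ratio of 0.149, at 8.23 ± 1.23 CPM (n = 4, SD), and stood at 7.69 ± 2.01 CPM (n = 3, SD) with LME-sEVs. Its log2 fold change of -0.10 (SE 0.23) became 0.10 without LME-sEV library 2. Il1rl1 is also known in activated T cells.

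Gata2, the transcription factor, was at 1, 5, 9 and 1 counts with HCME-sEVs and at 16, 7 and 7 counts with LME-sEVs. LME-sEV library 1 stood highest, at 4.30 CPM, and the other two LME-sEV libraries lay inside the HCME-sEV range. Gata2 averaged 1.04 CPM (SD 1.03, n = 4) under HCME-sEVs, 2.41 CPM (SD 1.64, n = 3) under LME-sEVs. Its log2 fold change was 1.18 (SE 0.62), which was 0.54 without LME-sEV library 1 and 1.97 without HCME-sEV library 3. Cyp11a1, the mitochondrial enzyme that turns cholesterol into pregnenolone and is also known in T cells and mast cells, was at 8, 11, 9 and 6 counts and at 14, 18 and 9 counts. LME-sEV libraries 1 and 2 lay above the HCME-sEV libraries and LME-sEV library 3 inside their range. Cyp11a1 averaged 2.13 CPM (SD 0.601, n = 4) and 3.19 CPM (SD 1.26, n = 3), a log2 fold change of 0.56 (SE 0.40).

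Of the 9 members that passed the filter on low counts, 2 met the rule for a call, an adjusted p under 0.05 and a log2 fold change past 1 in size, and both were higher with LME-sEVs. Over all 12623 tested genes the same rule called 1.28%, with 0.626% called as higher and 0.658% as lower. Without HCME-sEV library 4, LME-sEV library 1 or LME-sEV library 2 the count of called members was 1, Prg2, and the log2 fold change of Mcpt8 was then 1.18, 1.35 and 1.16. Groups did not overlap for 1 member, Prg2, beside 9.49% of all tested genes in that direction. The log2 fold change was above 0 for 7 of the 9 members, with a median of 0.44, and for 51.5% of all tested genes, with a median of 0.01. Since the members were chosen on this contrast, nothing is read from these counts.

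**Figure D2:**
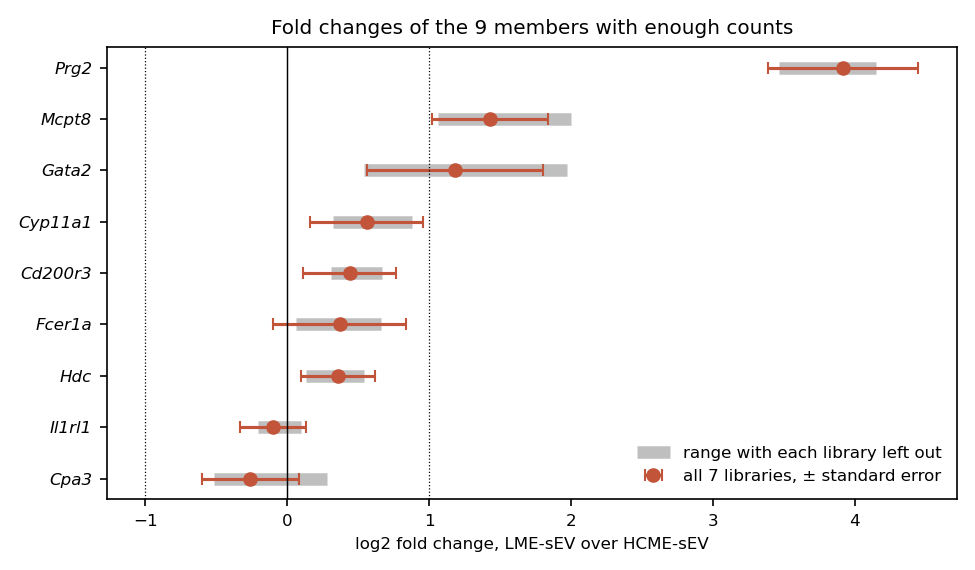
Fitted log2 fold changes (LME-sEV over HCME-sEV) of the 9 members with enough counts, with their standard errors (thin bars) and the range of values when each of the 7 libraries was left out (grey bars); dotted lines mark -1 and 1. Prg2 lies far to the right of the others at 3.92, and the ranges of Cpa3 and Il1rl1 cross 0.

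Summed over the 10 members, the level was 22.9, 50.7, 47.2 and 26.5 CPM in the HCME-sEV libraries and 61.1, 60.2 and 40.5 CPM in the LME-sEV libraries. The groups overlapped, with HCME-sEV libraries 2 and 3 above LME-sEV library 3. The mean sum was 36.8 ± 14.1 CPM (n = 4, SD) with HCME-sEVs and 53.9 ± 11.6 CPM (n = 3, SD) with LME-sEVs, a ratio of 1.46. Without Prg2 the ratio was 1.31. The makeup of the sum differed as well: Prg2 gave 0 to 1.75% of the member counts in the HCME-sEV libraries and 7.93 to 15.3% in the LME-sEV libraries. Mcpt8 gave 3.16 to 17.5% and 17.2 to 26.5%. Cpa3 gave 16.8 to 35% of them with HCME-sEVs and 12.8 to 15.3% with LME-sEVs.

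Within groups the members tended to vary together. HCME-sEV libraries 2 and 3 both stood above libraries 1 and 4 for 9 of the 10 members, the exception being Cd200r3, and for 19.3% of all tested genes. That split of the libraries was read off the members' own values, so the comparison with all genes is not a test. When the group mean was taken from each log2(CPM + 0.5) value, the 45 pairs of members had a median Pearson r of 0.57 over the 7 libraries, and 88.9% of the pairs were positive. Over all pairs of tested genes, 49.9% were positive. These values are a description: the points share libraries and depth, counts below 10 are common among them, and the median lay between 0.46 and 0.65 when each library was left out. The pairs most alike were Mcpt8 with Cpa3, at 0.95, Hdc with Gata2, at 0.93, and Ms4a2 with Gata2, at 0.92. The lowest value, -0.41, was that of Prg2 with Il1rl1. Against the sum of the other members, Mcpt8 reached 0.96, Cd200r3 0.26 and Il1rl1 0.17.

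**Figure D3:**
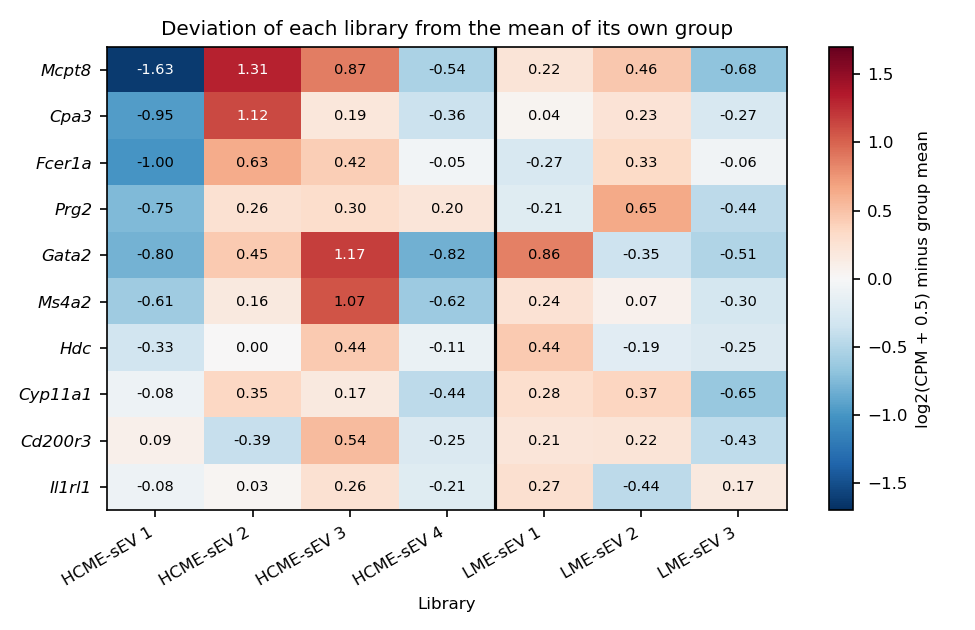
Deviation of each library from the mean of its own group, in log2(CPM + 0.5), for the 10 members (rows) in the 4 HCME-sEV and 3 LME-sEV libraries (columns; red, above the group mean; blue, below). HCME-sEV library 1 is low for Mcpt8 (-1.63), Fcer1a and Cpa3, library 2 is high for Mcpt8 (1.31) and Cpa3, and Il1rl1 varies less across the HCME-sEV libraries (-0.21 to 0.26) than across the LME-sEV libraries (-0.44 to 0.27).

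Among 9691 non-members averaging 20 or more counts, those whose deviations followed the summed members best over the 7 libraries were 1110032A03Rik (r = 0.986), Isy1 (0.985), Mosmo (0.983), Smarce1 (0.982) and Brms1l (0.981). Their fold changes ran from -0.12 for Smarce1 to 0.21 for 1110032A03Rik on the log2 scale. Values this high can arise from picking the largest of 9691 correlations over 7 libraries, and no test was made of them. Smarce1 and Brms1l share near-identical stretches near their 3′ ends with other annotated genes. Isy1 overlaps Gm45140 on its own strand, and 1110032A03Rik overlaps genes on the opposite strand. The counts of these genes are therefore uncertain. Of the genes listed for this programme, Ccl6 (0.93), Csf2rb (0.92) and Alox5ap (0.90) followed the sum most closely. Others ran against it as strongly, among them Vav1 (-0.96), Hrh2 (-0.83) and Il1rap (-0.79).

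Beyond the members, 8 lists of genes of the same cells, by role, held 124 genes, of which 66 had enough counts. The lists were made knowing earlier results of these data. In the fit over all genes (edgeR quasi-likelihood test, Benjamini-Hochberg adjustment), 8 of the 66 were higher with LME-sEVs and 4 lower at an adjusted p under 0.05, beside 3.75% and 5.21% of all tested genes, or 8.96% in either direction. The median log2 fold change of the 66 was 0.07.

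Granule genes of these cell types were present unequally. Of 18 listed, 8 were at 0 in every library and 13 had at most 2 counts in a library, and 2 had enough counts for the fit. Prss34, a tryptase-like protease of mouse basophils, was at 0, 14, 7 and 13 counts with HCME-sEVs and at 23, 30 and 41 counts with LME-sEVs. All LME-sEV libraries lay above all HCME-sEV libraries, at 2.11 ± 1.57 CPM (n = 4, SD) against 6.96 ± 0.901 CPM (n = 3, SD), and Prss34 rose by 1.72 on the log2 scale (SE 0.43, adjusted p = 0.0153). The adjusted p was 0.0638 without LME-sEV library 2 and 0.0914 without LME-sEV library 3, and it was 0.24 in DESeq2. Srgn, the proteoglycan core of granules that T cells also make, had a log2 fold change of -0.04 (adjusted p = 0.838).

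The peroxidase Epx, which defines eosinophils, was at 0 in all HCME-sEV libraries and at 1, 1 and 2 counts with LME-sEVs. Prg3 was at 1, 1 and 0 counts with LME-sEVs and at 0 otherwise. Over 9 eosinophil genes, namely Epx, Prg3, Ear1, Ear2, Ear6, Ear10, Il5ra, Ccr3 and Siglecf, 3 were at 0 in every library, 8 stayed below 3 counts in every library, and the sum was 2 to 5 counts with HCME-sEVs and 6 to 12 counts with LME-sEVs. The highest was Siglecf, with 8 counts in LME-sEV library 2. Prg2 stood at 18 to 41 counts in LME-sEV libraries where these 9 eosinophil genes summed to 12 at most.

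A set of 10 mast-cell genes was likewise near 0. Cpa3, Kit, Hdc, Il1rl1 and Cd200r3, which mast cells share with other cells, were not in this set and were not near 0. Over the proteases Cma1, Cma2, Mcpt1, Mcpt2, Mcpt4, Mcpt9, Tpsb2, Tpsab1 and Tpsg1 and the receptor Mrgprb2, 6 of the 10 genes were at 0 in every library and the sum was 1 to 5 counts with HCME-sEVs and 3 to 6 with LME-sEVs. Cma1, the chymase, was at 1 to 3 counts in every library. The pair of basophil proteases, Mcpt8 and Prss34, summed to between 3 and 49 counts with HCME-sEVs and between 73 and 101 with LME-sEVs. Mcpt8 was picked with this contrast in view. The pair is only a part of the basophil genes followed here. Other members that basophils carry had log2 fold changes of -0.26 for Cpa3, 0.36 for Hdc, 0.37 for Fcer1a and 0.44 for Cd200r3. The groups overlapped for each of them, and for Ms4a2, which was too low for the fit. Apart from Prg2 and Mcpt8, the fitted members had log2 fold changes from -0.26 for Cpa3 to 1.18 for Gata2. On chromosome 14, next to Mcpt8, the genes Cma2, Mcpt1, Mcpt9 and Mcpt2 had 0 counts and Ctsg at most 8. The granzymes of the same cluster, products of cytotoxic T cells, did not move together: Gzmc rose by 0.75 on the log2 scale (adjusted p = 0.000134) and Gzmb fell by 0.35 (adjusted p = 0.0335).

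Among the enzymes and chemokines that these cells release, 3 of 9 tested genes rose and 2 fell. Ccl6, a chemokine of myeloid cells, was at 22, 104, 87 and 51 counts with HCME-sEVs and at 243, 230 and 218 with LME-sEVs. It rose without overlap, from 16.7 ± 9.81 CPM (n = 4, SD) to 53.1 ± 11.6 CPM (n = 3, SD), by 1.68 on the log2 scale (SE 0.27, adjusted p = 0.000662). Alox5, the 5-lipoxygenase that starts leukotriene synthesis, was at 2, 4, 2 and 2 counts against 10, 10 and 16. It rose by 2.07 (SE 0.48, adjusted p = 0.0101), a call that missed the threshold without LME-sEV library 3 (adjusted p = 0.0685). Its partner Alox5ap, added after its values were seen, was at 5, 17, 21 and 12 counts against 37, 45 and 36 and rose by 1.38 (SE 0.32, adjusted p = 0.0109), or with an adjusted p = 0.0766 without LME-sEV library 2. Ccl4 and the cytokine Osm, both made by activated T cells too, fell by 0.46 (adjusted p = 0.00113) and 0.68 (adjusted p = 0.00708), the latter with an adjusted p = 0.0617 without LME-sEV library 2.

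Of 11 tested cytokine receptors 2 rose. Kit, the receptor of stem cell factor on mast cells and progenitors, was at 29, 25, 44 and 30 counts with HCME-sEVs and at 61, 77 and 68 counts with LME-sEVs. The groups did not overlap, and Kit rose by 0.96 on the log2 scale (SE 0.21, adjusted p = 0.00614), with an adjusted p = 0.0541 without LME-sEV library 2. Il9r, the receptor of the mast-cell growth factor IL9, was at 0, 2, 4 and 2 counts against 14, 11 and 16, and rose by 2.57 (SE 0.55, adjusted p = 0.00615). The basophil growth factor IL3 acts through Il3ra and the beta chain Csf2rb. Il3ra had a log2 fold change of -0.29 (adjusted p = 0.617). Csf2rb had one of 0.64 (adjusted p = 0.219), at 11, 34, 23 and 19 counts against 43, 37 and 31. Counts of Csf2rb are uncertain because it shares a near-identical stretch near its 3′ end with Csf2rb2. Il5ra, the eosinophil receptor, had 1 count in 1 library.

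**Figure D4:**
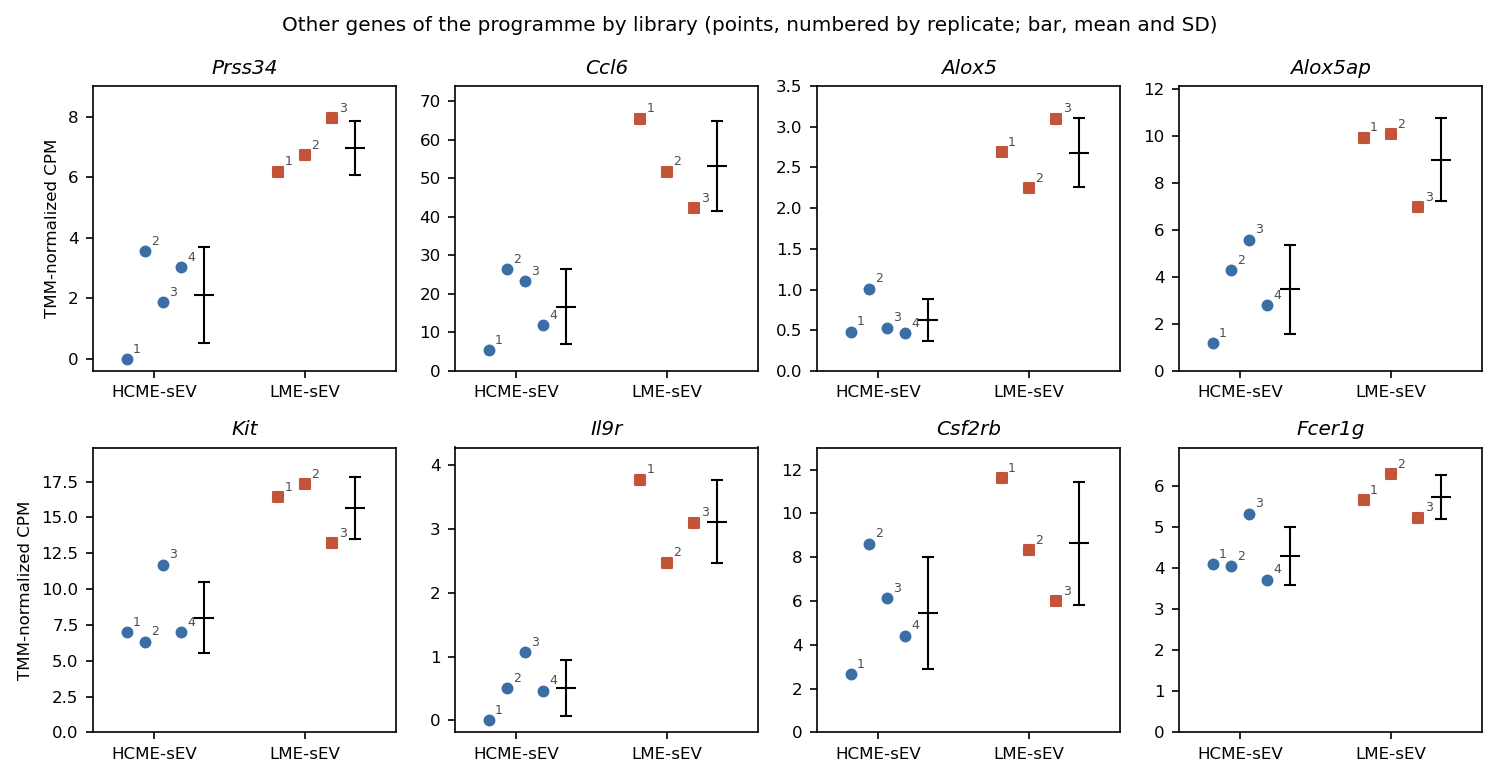
TMM-normalized CPM of 8 genes outside the members in each library (circles, HCME-sEV; squares, LME-sEV; small numbers, replicate; bars, mean and SD; linear axes of differing range). The groups do not overlap for Prss34, Ccl6, Alox5, Alox5ap, Kit and Il9r, and they overlap for Csf2rb and Fcer1g.

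Signalling genes downstream of the IgE receptor are mostly shared with T cells, and 1 of 13 tested rose, Plcg1, by 0.30 (adjusted p = 0.0408). Plcg1 overlaps genes on the opposite strand, which its counts may include, and 5 of the 7 fits that left out a library lost that call, with adjusted p-values up to 0.17. Of 17 listed surface receptors 5 were tested and 0 passed in edgeR, DESeq2 or limma-voom, and 0 had an unadjusted p under 0.05 in edgeR. Of 15 tested lineage factors 1 rose and 1 fell. Nfil3, at 123, 111, 106 and 104 counts against 46, 82 and 75, fell by 0.86 (SE 0.15, adjusted p = 0.00128). Stat5b, which shares a near-identical stretch near its 3′ end with Stat5a, rose by 0.29 (adjusted p = 0.0355). For Stat5b, 5 of 7 fits without a library lost that call, with adjusted p-values up to 0.178. Gata1, which works with Gata2 in these lineages, was at 10, 15, 14 and 18 counts against 17, 13 and 9 (log2 fold change -0.25, adjusted p = 0.755), and Cebpa had 0 to 3 counts.

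Steroid synthesis, the pathway that Cyp11a1 opens, had 0 genes higher and 1 lower among 7 tested in edgeR, 0 of either direction in DESeq2 and limma-voom, and 0 higher at an unadjusted p under 0.05. Hsd11b1, which regenerates active glucocorticoid, was at 19, 13, 18 and 26 counts against 6, 9 and 14 and fell by 1.11 on the log2 scale (SE 0.34, adjusted p = 0.0468). Only 1 of the 7 fits that left out a library, that without HCME-sEV library 2, kept it under the threshold, with adjusted p-values up to 0.153. The cholesterol carrier Star and the electron donor Fdx1 had log2 fold changes of 0.08 (adjusted p = 0.912) and 0.12 (adjusted p = 0.508). Of the 4 tested cytokines that act on or come from these cells, 0 passed in edgeR, DESeq2 or limma-voom, and 1, Csf2, had an unadjusted p under 0.05 in edgeR. Their log2 fold changes were 0.11 for Il3 (adjusted p = 0.915), -0.70 for Csf2 (adjusted p = 0.125), -0.57 for Il13 (adjusted p = 0.281) and, chosen after its value was seen, 0.67 for Il18 (adjusted p = 0.447). Il4 was at 0 apart from 3 counts in LME-sEV library 3, and Il5 had none.

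**Figure D5:**
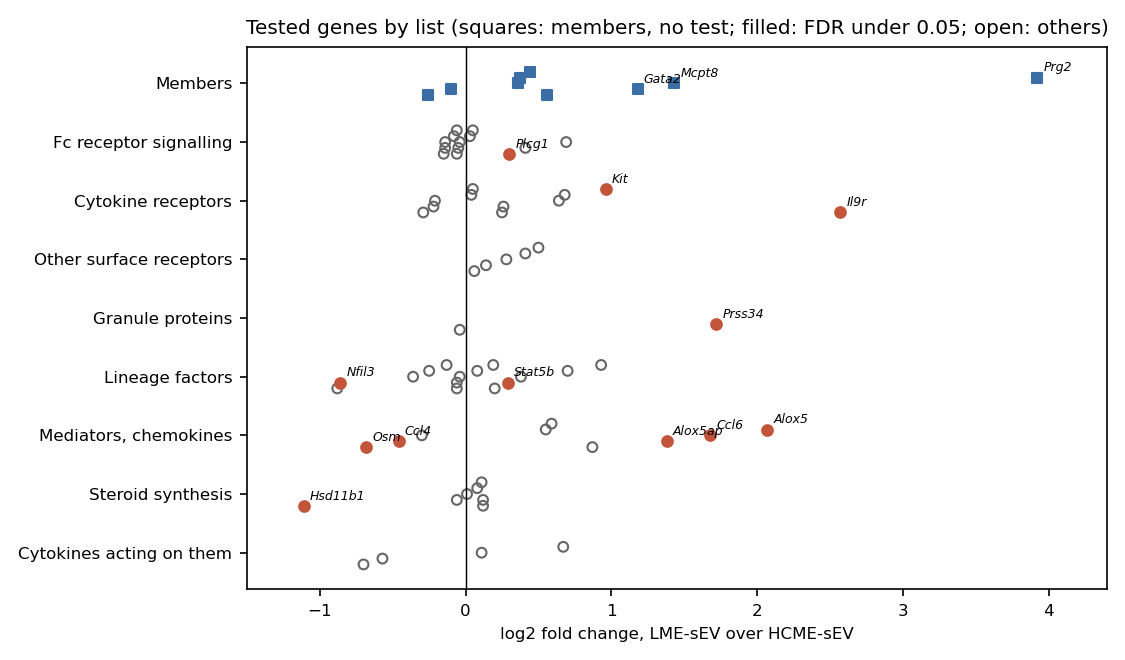
Fitted log2 fold changes (horizontal axis, LME-sEV over HCME-sEV) of the tested genes in each list (rows; squares, members, shown without a test; filled circles, adjusted p under 0.05 over all genes; open circles, others). Genes past the threshold lie on both sides of 0, with Il9r, Alox5, Prss34, Ccl6 and Alox5ap above 1 and Hsd11b1 below -1.

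Some marker lists of other cells differed between the groups as well, several of them made up mostly of a single gene. Their part in the values above was not tested. Erythroid and platelet genes summed to 75.9, 113, 185 and 98.5 CPM with HCME-sEVs and to 187, 210 and 161 CPM with LME-sEVs. The largest part was Pf4, at means of 61 and 106 CPM. Of 8 tested genes 3 were higher, Hba-a1 by 0.90 (adjusted p = 0.0486), Pf4 by 0.81 (adjusted p = 0.0331) and Ppbp by 0.89 (adjusted p = 0.0188). The most abundant globin gene, Hbb-bs, had a log2 fold change of -0.01 (adjusted p = 0.981). HCME-sEV library 1 was the lowest of its group for this sum too, as it was for 26.8% of all tested genes. B-cell genes summed to between 235 and 280 CPM and between 319 and 344 CPM, mostly from Ighm. Of 6 tested genes 2 were higher, Ighm by 0.38 (adjusted p = 0.0043) and Vpreb3 by 2.22 (adjusted p = 0.0387). Cd79a was at 2 counts at most, and Pax5 was at 2, 2, 4 and 6 counts against 1, 1 and 1. The macrophage and monocyte list, dominated by Ly6c2, ranged from 544 to 695 CPM and from 601 to 672 CPM, and 0 of its 3 tested genes passed. Itgam in it, too low for the fit, was at 0, 0, 0 and 1 counts against 6, 8 and 6. Cd68 was at 9, 3, 8 and 6 counts against 9, 19 and 14. Csf1r was at 4, 3, 0 and 4 counts against 2, 3 and 4, and Cd14 had at most 1 count. The NK list, mostly from Klre1, ranged from 18.2 to 30.4 CPM and from 16.4 to 29.7 CPM, and Ncr1 had at most 1 count. The neutrophil list ranged from 1.77 to 2.13 CPM and from 1.12 to 5.92 CPM. The dendritic-cell list, mostly from Zbtb46, ranged from 7.22 to 9.64 CPM and from 9.69 to 12.6 CPM. In it Xcr1, Clec9a, Siglech and Cd209a had at most 1 count, and Itgax was at 3, 1, 2 and 0 counts against 5, 4 and 11. The CD4 and regulatory T-cell list, mostly from Zbtb7b, ranged from 6.26 to 14.4 CPM and from 15.3 to 17.3 CPM. Zbtb7b rose by 0.87 (adjusted p = 0.0241).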

How the data were processed

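CD8+ T cells were profiled with QuantSeq 3′ FWD libraries carrying unique molecular identifiers. Per the labels and methods, the authors trimmed reads (cutadapt 2.10), aligned them to GRCm38 (STAR 2.5.3a), collapsed molecules (UMI-tools 1.0.0) and deposited raw counts per gene (featureCounts, Subread 2.0.0); the annotation release and strand setting are not given in the sources used here. Libraries were grouped by title. Counts were analysed with edgeR 4.0.16 (TMM, quasi-likelihood test, no covariate) in R 4.3.3 on 12623 genes averaging 5 or more counts; 28893 genes had no count. A call required a Benjamini-Hochberg adjusted p under 0.05 and an absolute log2 fold change over 1. limma 3.58.1 and DESeq2 1.42.0 served as alternatives, beside other scalings, filters and left-out libraries. The script was tested on simulated data. All pairs of libraries within a group differed by more than counting noise (chi-square per degree of freedom 2.1 to 6). Members and lists were chosen with earlier results of these data known. Besides the members, genes named were those passing the test (at most 4 per list), a fixed set by role, and the 5 most like the summed members; Alox5ap, Il18, Srgn, the neighbours of Mcpt8 and marker genes given with values were chosen after their values were seen. Gene models came from GENCODE vM21 and promoters from RefSeq (GRCm38.p6). Intervals cover counting error only.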

Additional observations from a re-analysis of the deposited data

Results flagged for a closer look

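Values standing apart from the others of their group were looked for in 50 sets of 4 HCME-sEV libraries. Dixon's ratio of gap to range was used at its 95% critical value, and 8 were found. The usual 1 in 20, or 2.5 sets, holds for unrelated sets of continuous values. These sets share the same libraries and several hold only a few counts, so 8 cannot be judged against 2.5. Prg2 was one (ratio 0.873), with library 1 at 0 and the next library at 0.466 CPM. Kit was highest in library 3 (0.879), at 11.7 CPM beside 6.99 CPM. Ccl4 was highest in library 1 (0.89), at 309 CPM beside 273 CPM, and Il13 likewise (0.889), at 12.3 CPM beside 5.87 CPM. Alox5 was highest in library 2 (0.876), at 1.01 CPM beside 0.533 CPM. Il5ra (1) was seen in library 3 alone, at 0.267 CPM, and Ccr3 (0.873) was at 0 in library 2 beside 0.233 CPM. The summed dendritic-cell markers were highest in library 1 (0.896), at 9.64 CPM beside 7.47 CPM. For Prg2, Alox5, Il5ra and Ccr3 the gaps amount to a few counts.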

How the results depend on the processing

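DESeq2 called 105 genes in place of 162, 7 pathway genes in place of 12 and 1 member, Prg2, in place of 2; it left 1714 genes, 2 members among them, without an adjusted p. Requiring at least 5 counts in every library called 0 members, since neither Prg2 nor Mcpt8 then entered the fit. When single libraries were omitted, the genes called ranged from 83 to 184, the pathway genes passing from 5 to 11 and the members called from 1 to 2, the lowest counts of genes coming without LME-sEV library 2 (83 genes, 5 pathway genes) and LME-sEV library 3 (90 genes). The log2 ratio of the summed members, 0.55, ranged from 0.38 to 0.74 in the same way, and was 0.39 without Prg2 and 0.70 without Cyp11a1 and Il1rl1. Other scalings, filters and limma-voom kept every count within 1.5 times and reversed no called value. Deviations of same-numbered libraries had low correlations (r = 0.072, 0.155 and 0.027), and not every library correlated best with its own number. The value of 0.155, for the libraries numbered 2, was the highest of all pairs across the groups. With so few libraries this cannot tell whether a number stands for a shared animal or batch. With the replicate number as a block, 179 genes, 13 pathway genes and 2 members were called and the summed log2 ratio was 0.48. Counts under 10 are common among the members, and Ms4a2 was too low to be fitted.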
